A study of Nematostella vectensis with 33 samples.

Results

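Embryos of the sea anemone Nematostella vectensis that carried a short hairpin RNA (shRNA) against STING answered 2'3'-cGAMP with a change in 3225 genes, 1974 of them higher and 1251 lower than in untreated embryos with the same hairpins. The comparison covered 8 messenger RNA libraries of the 33 in the series. STING shRNA 1 with 2'3'-cGAMP and STING shRNA 2 with 2'3'-cGAMP had 2 libraries each, and so did STING shRNA 1 untreated and STING shRNA 2 untreated. Every embryo in these 8 libraries had been microinjected with a STING hairpin, so both sides of the comparison carried it. Treatment was 100 µM 2'3'-cGAMP over 4 h, and the embryos set against the treated ones are labelled untreated rather than vehicle-treated. The libraries were picked by their labels and not by any measured value.

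2'3'-cGAMP is a cyclic dinucleotide of guanosine and adenosine. In mammals it is made by the DNA sensor cGAS and binds STING, a receptor of the endoplasmic reticulum whose activation leads through NF-kB and interferon regulatory factors to interferons and other defence genes. Sea anemones also have a STING protein that binds cyclic dinucleotides. An shRNA lowers the messenger of its target through RNA interference, and a hairpin against GFP, a jellyfish fluorescent protein, is the usual control for the injection itself. NF-kB and STAT are transcription factors of immune signalling in many animals. The genes below are given by the identifiers of the deposited tables, LOC followed by an NCBI gene number, and the annotation used here pairs these with no descriptive name, so no function is given to any of them. For the same reason the depletion of the STING transcript was not analysed here, and none of the 25 gene lists drawn up for the comparison (interferon-type response, NF-kB targets, cell types and others) could be matched to a gene.

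Values were normalised counts as deposited, and a gene was called changed when its adjusted p-value in a limma model with the hairpin as a block was under 0.05 (Benjamini-Hochberg over all genes tested). Deposited totals, in units of 1e6, were 25.5 to 29.3 in treated libraries and 20.9 to 22.8 in untreated libraries, and these sums of normalised values do not give the read depth, which is unknown. The share of genes at 0 was 4.65% to 7.63% in treated libraries and 5.07% to 11.3% in untreated libraries. The untreated libraries of STING shRNA 1 were less alike than other pairs. Their log values correlated at 0.853 with each other across 15898 genes. The other pairs of the same hairpin and treatment reached 0.952 to 0.974. A first principal component with 56.6% of the variance separated treated from untreated libraries. The second, with 22.1%, placed the STING shRNA 1 untreated libraries 1 and 2 at opposite ends, with scores of -81.6 and 52.6. On it library 2 lay on the side of the STING shRNA 2 untreated libraries, at 32.2 and 30.8, and library 1 stood apart. The count of changed genes was 4397 without STING shRNA 1 untreated library 1 and 2970 without library 2. The response was thus called without either of them.

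Of 20499 genes tested, 9.63% were higher and 6.1% were lower with 2'3'-cGAMP than without. An unadjusted p under 0.05 was reached by 5769 genes. The rise was larger than the fall: the median log2 change was 1.54 among the genes that rose and -1.10 among those that fell, and 720 genes rose by at least 2 on the log2 scale whereas 88 fell by as much. At the far end 69 genes rose by at least 5 and 1 gene fell by as much. In 1913 of the 1974 higher genes and 1216 of the 1251 lower genes the 4 treated libraries lay wholly outside the range of the 4 untreated libraries, a separation that 13.5% of all tested genes showed upward and 11.1% downward. Among the higher genes 13 were at 0 in all untreated libraries, and among the lower genes 1 was at 0 in all treated libraries. The balance of rises and falls rested on the scaling. With the authors' scaling 61.2% of calls were higher and the median gene stood at 0.04 on the log2 scale, with library totals set equal 31.8% of 4395 calls were higher and the median gene stood at -0.27, and with quantile normalisation 50.8% of 3373 calls were higher and the median gene stood at -0.11. Leaving out single libraries gave the lowest count, 2074, when library 2 of the STING shRNA 2 2'3'-cGAMP group was dropped.

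The balance of rises and falls differed with the untreated level of the genes. That level also enters the change itself, so a low untreated value both lowers a gene's class and adds to its rise. The part of this in the counts below was not tested. Among 1340 genes with an untreated mean under 10, 103 rose and 0 fell, with a median log2 rise of 3.73, although a gene that low can pass the filter on low values through its treated libraries and has little room to fall. Among 5292 genes at 10 to 100, 363 rose with a median of 2.32 and 57 fell with a median of -2.14. Calls were nearer to balance in the next 2 classes. Among 9203 genes at 100 to 1000, 1040 rose with a median of 1.37 and 801 fell with a median of -1.15. Among 4371 genes at 1000 to 10000, 462 rose with a median of 1.04 and 383 fell with a median of -0.91. Of 293 genes at 10000 or more, 6 rose and 10 fell.

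The 1974 genes that rose held 23.7% to 25.2% of the deposited total in the 4 treated libraries, against 6.58% to 7.45% in the 4 untreated libraries. The 1251 that fell held 2.50% to 2.78% in treated libraries, against 5.98% to 8.02% in untreated libraries. These shares describe genes chosen on the same libraries and are no separate test. In whole embryos a change in the number of cells of a type and a change in RNA per cell cannot be told apart.

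The 15 genes with the largest rise, among matched genes with a mean of at least 50 over the 8 libraries and no overlap between groups, rose by 5.72 to 7.18 on the log2 scale, or 52.8- to 145-fold. LOC116608134 had 1467, 1304, 1394 and 1655 normalised counts in treated libraries (STING shRNA 1 libraries 1 and 2, then STING shRNA 2 libraries 1 and 2), against 22.3, 0, 31.6 and 12.1 in untreated libraries in the same order. Its untreated values were near the bottom of the scale and spread widely in relative terms, and the treated values sat within a narrow band far above them. Its log2 change was 7.18 ± 0.83 (SE, adjusted p = 1.88e-04, limma).

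LOC116603455 had 3842, 3351, 4205 and 4290.4 normalised counts in treated libraries, against 33.0, 22.6, 58.4 and 36.4 in untreated libraries. The groups were far apart in both hairpins, and the log2 change was 6.74 ± 0.23 (SE, adjusted p = 1.12e-07, limma). LOC5519088 had 21198, 20879, 20362 and 25322 in treated libraries, against 326, 131, 259 and 176 in untreated libraries, a change of 6.69 ± 0.26. LOC5517508 had 34828, 47246, 33237 and 49584 in treated libraries, against 474, 358, 656 and 661 in untreated libraries, a change of 6.28 ± 0.22. Both rose by a similar amount with each hairpin, and no treated library of either gene came near an untreated one. LOC116603455 and LOC5517508 shared the lowest adjusted p-value of the named genes, 1.12e-07 (limma).

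LOC5518230 was less even. It had 9550.5, 16598, 8602 and 15038 normalised counts in treated libraries, against 214, 20.1, 178 and 139.6 in untreated libraries, and the lowest value came from STING shRNA 1 untreated library 2. LOC116618411 had 752, 1752, 1429 and 1316 in treated libraries, against 18.9, 0, 19.1 and 40.4 in untreated libraries, again with its 0 in STING shRNA 1 untreated library 2. The log2 change was 6.86 ± 0.61 for LOC5518230 and 6.79 ± 0.84 for LOC116618411 (SE, adjusted p = 2.45e-05 and 3.18e-04, limma), and the larger errors came with that spread among untreated libraries. The other genes of the 15 were LOC116602083, LOC116616218, LOC116603727, LOC5515806, LOC5520446, LOC5506284, LOC5519900, LOC5519349 and LOC116603015.

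**Figure D1:**
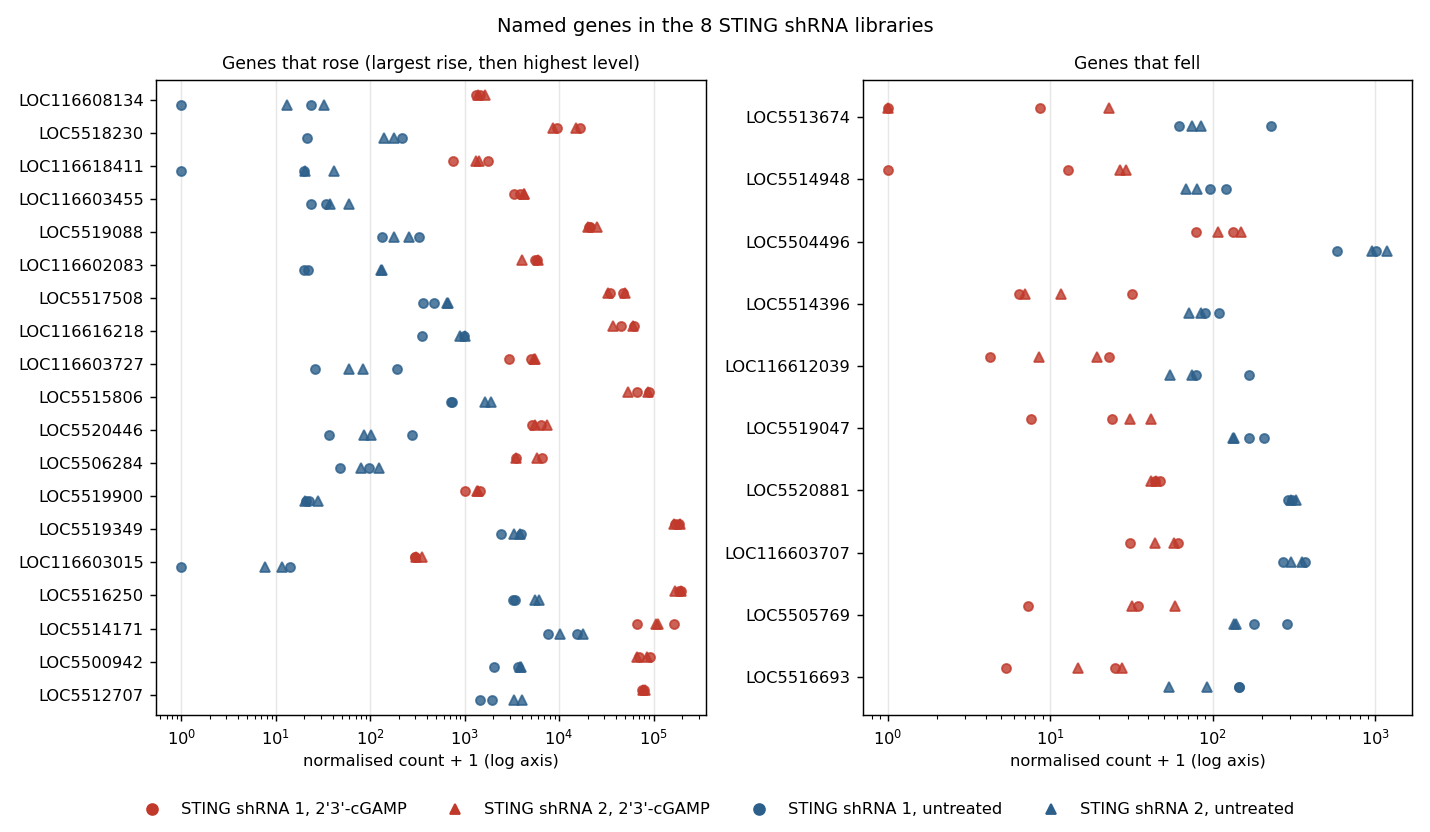
Each point is 1 library's normalised count plus 1, on a log axis, for the genes with the largest rise or the highest treated level (left) and the largest fall (right); colour gives the treatment and shape the hairpin. Treated and untreated points do not overlap for any of the genes, and for several of them the untreated points of STING shRNA 1 are the widest apart.

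A set of 5 genes was picked for the highest normalised counts in treated libraries among genes that rose, a measure that also grows with transcript length. LOC5519349, also among the 15 above, had 169245, 187350.0, 165150.0 and 190952 normalised counts in treated libraries, against 3927, 2395, 3819 and 3341 in untreated libraries, a log2 change of 5.75 ± 0.25. LOC5516250 had 195591, 187991, 168044 and 196608 in treated libraries, against 3377, 3284, 6113 and 5545 in untreated libraries, a log2 change of 5.41 ± 0.26. In untreated embryos these 2 genes were already expressed at 2395 to 6113 counts, and treatment put each at 165150.0 or more in every library.

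LOC5514171 had 165103, 66841, 112223 and 106320.0 normalised counts in treated libraries, against 15659, 7706, 17771 and 10122 in untreated libraries. Of the 5 genes it varied most among treated libraries, with a mean of 112622 ± 40373 in treated libraries and 12814 ± 4691 in untreated libraries (SD, n = 4 each), and its log2 change of 3.14 ± 0.37 was the smallest of the 5 genes picked for level. LOC5512707 was the most even of them in treated libraries, with 78439, 74689, 76786 and 81026 in treated libraries, against 1941, 1458, 4095 and 3311 in untreated libraries. Its untreated level was lower with STING shRNA 1 than with STING shRNA 2, and its treated level was nearly the same with both. LOC5500942, the remaining gene, rose by 4.56 ± 0.26.

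The 10 genes with the largest fall changed by -4.70 to -2.72 on the log2 scale and had at most 1185 normalised counts in any of the 8 libraries. LOC5520881 had 43.2, 46.6, 44.0 and 40.5 normalised counts in treated libraries, against 304, 291, 302 and 325 in untreated libraries. This was the tightest of the falls: the 4 values of each group lay close together, and the log2 change was -2.78 ± 0.26 (SE, adjusted p = 3.35e-05, limma). LOC5504496 had 132, 77.7, 149 and 107 in treated libraries, against 579, 1010.0, 1185 and 948 in untreated libraries, a change of -2.98 ± 0.26. LOC116603707 had 30.1, 60.1, 42.9 and 56.9 in treated libraries, against 271, 369, 301 and 354 in untreated libraries, a change of -2.78 ± 0.31. These 3 genes were the ones of the 10 that were also called lower in each hairpin taken alone.

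The deepest of these falls, in LOC5513674, had treated values at or near 0. It had 0, 7.61, 0 and 21.9 normalised counts in treated libraries, against 61.1, 228, 83.4 and 73.2 in untreated libraries, and its log2 change of -4.70 ± 1.05 had an adjusted p of 0.0118 (limma). LOC5514948 had 0, 11.9, 28.1 and 25.8 in treated libraries, against 119, 95.6, 67.3 and 78.8 in untreated libraries, a change of -3.15 ± 0.90 (adjusted p = 0.0373, limma). It was the gene among the 29 named by the selection rule whose call was lost when single libraries were left out. LOC5514396, LOC116612039, LOC5519047, LOC5505769 and LOC5516693 changed by -2.94 to -2.72, with treated libraries at 3.27 to 57.5 normalised counts and untreated libraries at 52.4 to 287.

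Using 2 hairpins allowed the response to be read in each. With STING shRNA 1 alone, 1300 genes (6.34% of those tested) were higher and 550 (2.68%) lower with 2'3'-cGAMP than without. With STING shRNA 2 alone, 894 (4.36%) were higher and 245 (1.2%) lower. In both cases the spread was estimated over all 8 libraries, and when STING shRNA 2 libraries were fitted without the STING shRNA 1 libraries, 3811 genes were called, 2758 of them also called over both hairpins. The 1974 genes that rose had a positive change in each hairpin, with medians of 1.62 for STING shRNA 1 and 1.46 for STING shRNA 2. Of these, 759 were called higher in both hairpins, 428 with STING shRNA 1 and not STING shRNA 2, 130 with STING shRNA 2 and not STING shRNA 1, and 657 in neither taken alone. The 1251 genes that fell had a negative change in each hairpin, with medians of -1.18 for STING shRNA 1 and -1.01 for STING shRNA 2, and 154 were called in both. Because these genes were chosen on the mean of the hairpins, the shared sign is partly a matter of that choice.

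The direct test of a difference between hairpins, the response with STING shRNA 2 minus that with STING shRNA 1, called 0 of 20499 genes (0%, limma), and 659 genes had an unadjusted p under 0.05. Its 95% interval, not adjusted for the number of genes, had a median half-width of 1.34 on the log2 scale. For a typical gene a difference between hairpins of that size could not have been told from none. Larger ones could also have missed the adjusted threshold. The 0 depended on the STING shRNA 1 untreated libraries: without library 2 of the pair 1776 genes were called and without library 1 there were 6, in fits where the lone library left is assumed to vary like the other groups. The test of level between hairpins, averaged over treatments, called 0 of 20499 genes (0%, limma), with 307 at an unadjusted p under 0.05. The median half-width of its 95% interval, again not adjusted, was 0.67 on the log2 scale. Differences in level of that size, and larger ones under the adjusted threshold, could have been missed. Across genes the responses of the hairpins correlated at a Pearson r of 0.538, and at 0.745 over the 15896 genes with a mean of at least 50, a description across genes that are not independent of each other.

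LOC116602083 showed the widest gap between hairpins among the 15 genes with the largest rise. It had 5813, 5524, 4082 and 6021 normalised counts in treated libraries, against 21.1, 18.9, 132 and 129 in untreated libraries. Treated levels were alike with both hairpins, and untreated levels were lower with STING shRNA 1 than with STING shRNA 2, in both libraries of each. The rise was 5.24 with STING shRNA 2 and 8.08 with STING shRNA 1, a difference of -2.84 (95% interval -3.71 to -1.97) with an adjusted p of 0.458 over all genes (limma). LOC5515806 had 88807, 67026, 54114 and 86549 in treated libraries, against 715, 737, 1903 and 1624 in untreated libraries, with the same lower untreated level under STING shRNA 1. Its difference between hairpins was -1.45 (95% interval -2.46 to -0.44) and did not pass the adjustment either. Among the 10 genes with the largest fall the widest gap was in LOC5514948, at -4.90 with STING shRNA 1 and -1.40 with STING shRNA 2. The difference was 3.50 (95% interval 0.14 to 6.86), with an adjusted p of 0.881 (limma).

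**Figure D2:**
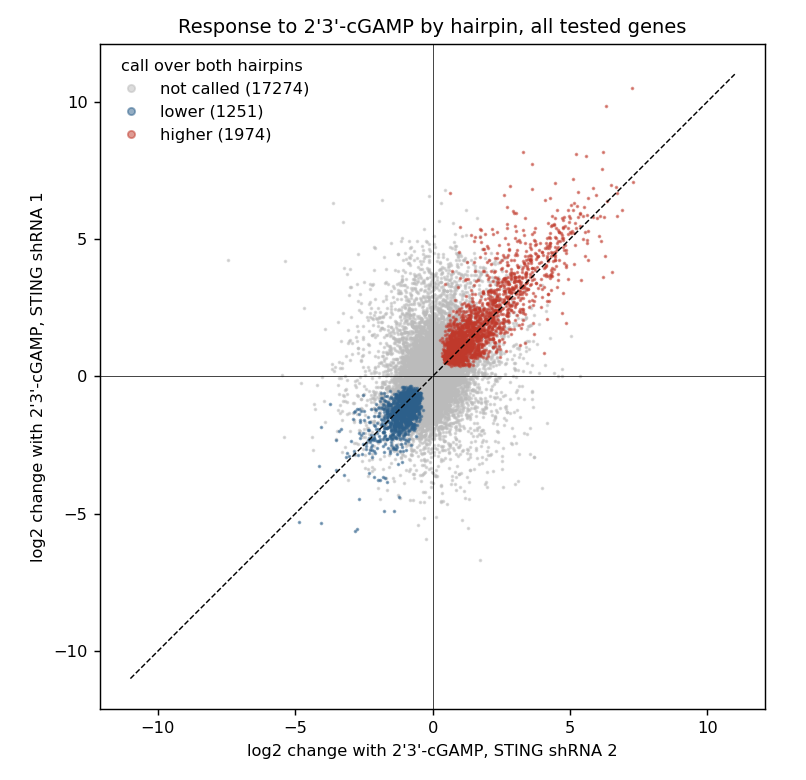
Each point is 1 of the 20499 tested genes, placed by its log2 change with 2'3'-cGAMP over untreated with STING shRNA 2 (horizontal) and STING shRNA 1 (vertical), and coloured by the call over both hairpins. The 1974 higher and 1251 lower genes lie along the dashed line of equal response, and uncalled genes spread further along the vertical axis.

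Embryos injected with the GFP hairpin, 2 libraries with the same 2'3'-cGAMP treatment and 2 untreated, show how the same genes answered without a hairpin against STING. In them 943 genes (4.52% of 20879 tested) were higher and 268 (1.28%) lower with 2'3'-cGAMP. Of the 1974 genes that rose in STING shRNA embryos, 923 (46.8%, and 97.9% of the 943) were called higher with the GFP hairpin and 0 lower. The other 1051 were not called there, but 1027 of them had a positive change, with a median of 1.03 on the log2 scale. Over all 1974 the median change with the GFP hairpin was 1.60, beside 1.54 with the STING hairpins and 0.04 for all genes tested with the GFP hairpin. Of the 1251 genes that fell, 248 (92.5% of the 268) were called lower with the GFP hairpin, and the median change of the 1251 was -1.002.

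The test of the difference itself, the mean response of both STING hairpins minus the response with the GFP hairpin, called 0 of 20879 genes (0%, limma), with 311 at an unadjusted p under 0.05. Its 95% interval, not adjusted for the number of genes, had a median half-width of 1.41 on the log2 scale. For a typical gene a difference of that size could not have been told from 0. Larger ones could also have missed the adjusted threshold. The GFP shRNA libraries differed in how many genes were at 0: 21.6% of genes were at 0 in untreated library 1 and 14.4% in 2'3'-cGAMP library 4, against 3.99% in untreated library 2 and 4.50% in 2'3'-cGAMP library 5. The 0 became 660 (655 lower, 5 higher) without GFP shRNA untreated library 2, which leaves library 1 as the sole untreated one. The count of the GFP shRNA response ranged more widely, 735 without untreated library 1, 743 without 2'3'-cGAMP library 4 and 2781 without untreated library 2. The shorter list with the GFP hairpin came from 2 libraries a group instead of 4, and the part of that number and of those libraries in it was not tested.

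Each of the 15 genes with the largest rise was called higher with the GFP hairpin as well, by 5.59 to 8.89 on the log2 scale. In 13 of the 15 the rise was smaller with the STING hairpins than with the GFP hairpin, by at most 1.84, and none of these differences passed the adjustment (adjusted p = 1.00, limma). LOC5517508 was the 1 gene of the 15 whose 95% interval left out 0. With the GFP hairpin it had 47357 and 46487 normalised counts in treated libraries, against 107 and 326 in untreated libraries, and its change with the STING hairpins minus that with the GFP hairpin was -1.68 (95% interval -2.87 to -0.49). Treated levels were alike under both hairpins there, and the untreated levels were lower with the GFP hairpin.

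Of the 10 genes with the largest fall, 3 were also called lower with the GFP hairpin. LOC5504496 was called lower with the GFP hairpin too, by 3.54 on the log2 scale (45.7 and 92.8 normalised counts in treated libraries, against 882 and 671 in untreated libraries). LOC5520881 and LOC116603707 were the other 2 called there, at -2.50 and -2.90. In LOC5513674 the GFP shRNA libraries disagreed among themselves, with 111 and 24.3 in treated libraries, against 0 and 101 in untreated libraries, so that its change of 2.40 had an interval of -2.30 to 7.09. Those 3 falls were the same 3 that were called in each STING hairpin alone. LOC5516693, at -2.63 with the GFP hairpin (95% interval -4.57 to -0.68), and LOC5505769, at -1.88 (-3.59 to -0.16), were not called there (adjusted p = 0.133 and 0.239, limma). LOC5514948 changed by 0.21 there (-2.50 to 2.92). For 2 of the 10 genes the change with the STING hairpins minus that with the GFP hairpin had a 95% interval without 0. It was -7.09 (-12.8 to -1.34) for LOC5513674 and -3.36 (-6.68 to -0.05) for LOC5514948, and neither passed the adjustment.

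Whole polyps exposed to 2'3'-cGAMP at 500 µM for 24 h form a separate experiment with other doses, times and library kits, normalised on its own, so their values are set beside those of embryos and not compared in size. In polyps 5271 genes (28.5% of 18511 tested) were higher and 5557 (30%) lower with 2'3'-cGAMP than untreated. Of the 1893 genes that rose in STING shRNA embryos and were tested in polyps, 1662 (87.8%, and 31.5% of the 5271) were higher there, 29 were lower and 202 were not called, with a median of 2.55 against -0.10 for all genes tested in polyps. Of the 1202 genes that fell and were tested, 863 (71.8%, and 15.5% of the 5557) were lower there and 47 higher. Genes called in the same direction in STING shRNA embryos, GFP shRNA embryos and polyps numbered 871 upward and 199 downward. With polyp library totals set equal, 15.8% of 13423 polyp calls were higher and the median gene stood at -1.21.

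Each of the 15 genes with the largest rise was higher in 2'3'-cGAMP polyps too, by 5.48 to 9.86 on the log2 scale. Of the 10 genes with the largest fall, 9 were tested in polyps and 5 of these were called lower there. LOC116602083 had 12402 and 13206 normalised counts in 2'3'-cGAMP polyps, against 38.2 and 56.6 in untreated polyps. Polyps given the other cyclic dinucleotides, also at 500 µM for 24 h, stayed near the untreated level for this gene. They had 47.6 and 40.9 for 3'3'-cGAMP, 62.6 and 44.6 for c-di-AMP and 61.1 and 56.7 for c-di-GMP. LOC5519349 had 37458 and 37839 in 2'3'-cGAMP polyps, 1279 and 933 for 3'3'-cGAMP, 1729.9 and 1725 for c-di-AMP, 504 and 446 for c-di-GMP and 407 and 466 untreated. Unlike LOC116602083, it stood above both untreated polyps with 3'3'-cGAMP and with c-di-AMP, far under its level with 2'3'-cGAMP.

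Taken as a group, the genes that rose in STING shRNA embryos held 39.7% and 40.5% of the deposited total in 2'3'-cGAMP polyps, 6.98% and 7.44% after 3'3'-cGAMP, 7.71% and 8.32% after c-di-AMP, 6.84% and 6.85% after c-di-GMP, and 6.62% and 6.85% in untreated polyps. In GFP shRNA embryos they held 24.6% and 25.1% with 2'3'-cGAMP, against 6.93% and 6.52% untreated. These treated GFP shRNA values lay within the range of the treated STING shRNA libraries of the same table, and 1 untreated value, 6.52%, lay under that of the untreated ones. A second set of 3 GFP shRNA embryo libraries with 2'3'-cGAMP, from an experiment normalised on its own, held 34.0%, 35.5% and 33.6%. In that experiment NF-kB shRNA 1 libraries held 33.6% and 26.9% and NF-kB shRNA 2 libraries 34.5% and 34.9%. STAT shRNA 1 libraries held 30.8% and 30.8% and STAT shRNA 2 libraries 34.2% and 34.6%. Among polyps the 2'3'-cGAMP libraries stood apart from the other 8. These libraries were not used to choose the genes.

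**Figure D3:**
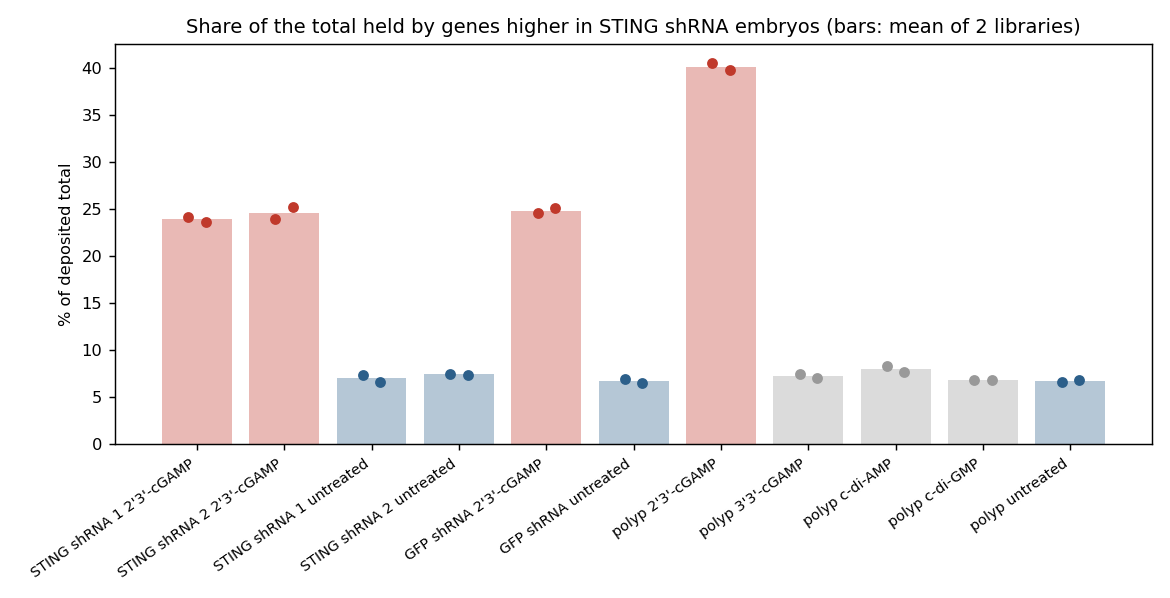
Bars give the mean and points the 2 libraries of each group for the percentage of the deposited total held by the 1974 genes higher in STING shRNA embryos (1944 of them in the polyp table). Groups given 2'3'-cGAMP stand at 23.7% to 25.2% in embryos with STING hairpins and at 39.7% and 40.5% in polyps, and untreated groups at 6.52% to 7.45%.

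A few genes went the other way in polyps. LOC5506403 had 166, 47.6, 115 and 109 normalised counts in treated STING shRNA libraries, against 4.35, 23.3, 5.58 and 19.8 in untreated ones, a log2 change of 3.12 ± 0.65, and 0 and 0 in 2'3'-cGAMP polyps, against 12.7 and 14.2 in untreated polyps. LOC5508962 had 309, 398, 183 and 333 in treated STING shRNA libraries, against 3.50, 24.0, 28.1 and 32.6 in untreated ones, a change of 4.02 ± 0.60, and 155 and 140.3 in 2'3'-cGAMP polyps, against 305 and 366 in untreated polyps. In both genes the 4 treated embryo libraries lay above the 4 untreated ones and both 2'3'-cGAMP polyp libraries lay under both untreated ones. The genes were picked for no overlap in embryos and a call of lower in polyps, so this is no separate support. The embryo call of LOC5506403 was lost with either hairpin taken alone and with all 12 libraries in the fit. That of LOC5508962 was lost with STING shRNA 2 alone. LOC116618025, picked in the same way for the reverse directions, fell in STING shRNA embryos. It had 48.0, 72.6, 78.4 and 69.2 in treated libraries, against 419.5, 211, 142 and 145 in untreated libraries. It was higher in polyps, with 23.8 and 32.2 in 2'3'-cGAMP polyps, against 4.25 and 2.66 in untreated polyps.

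**Figure D4:**
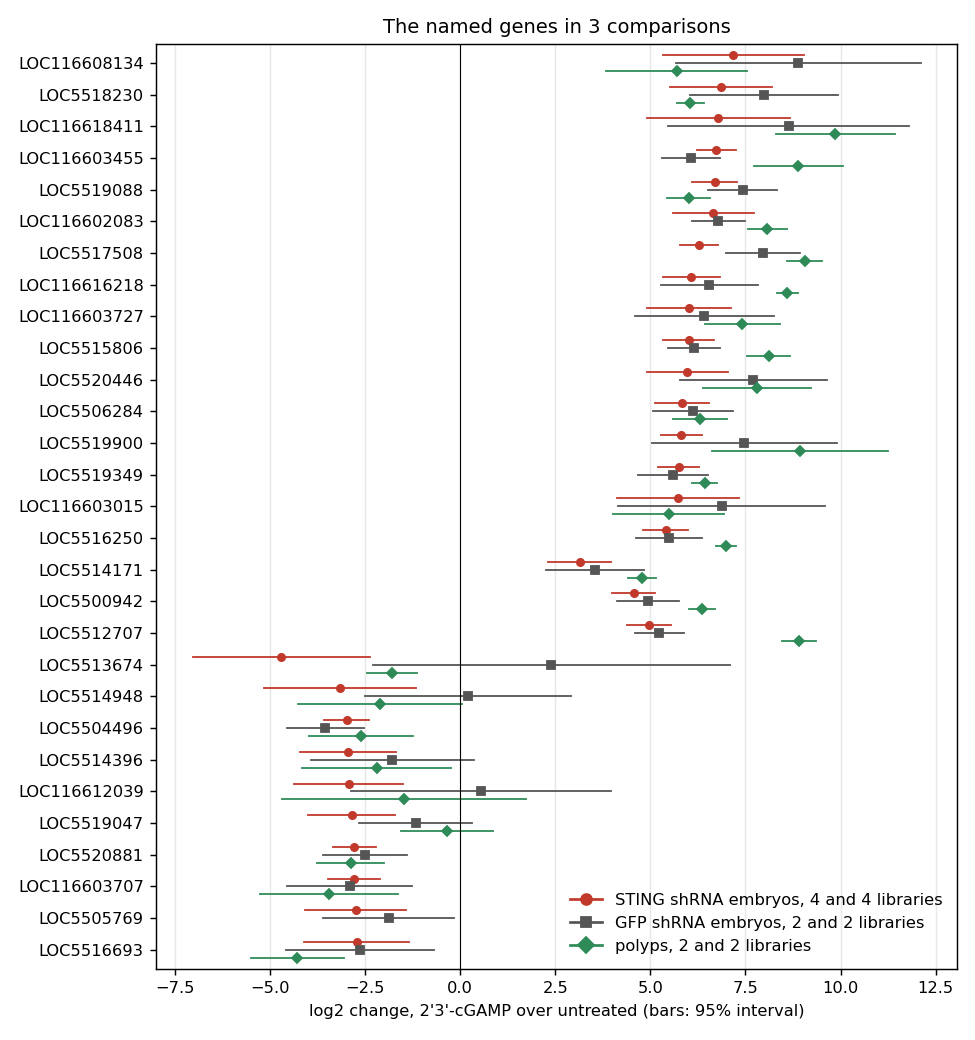
Log2 change with 2'3'-cGAMP over untreated and its 95% interval for the named genes in STING shRNA embryos (circles), GFP shRNA embryos (squares) and polyps (diamonds). The risen genes are higher in all 3 comparisons, with changes between 3.14 and 9.86, and intervals of the fallen genes in GFP shRNA embryos often include 0.

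A further embryo experiment was made to ask which factors the response needs. All its 11 libraries received 2'3'-cGAMP, at 100 µM over 4 h, with hairpins against NF-kB, STAT or GFP. It had no untreated libraries, so an effect of a hairpin on the response cannot be told apart from one on the untreated level. Between NF-kB and GFP hairpins 241 genes (1.2% of 20058 tested) were higher and 314 (1.57%) lower. Of the 1973 genes that rose in STING shRNA embryos and were tested there, 188 were lower with the NF-kB hairpins (9.53%, and 59.9% of the 314) and 101 were higher (5.12%, and 41.9% of the 241). The other 1684 of the 1973 were on neither list. Of the 1232 genes that fell and were tested, 10 were lower and 8 higher. The number of NF-kB calls was 188 without GFP shRNA library 2 and 222 without NF-kB shRNA 2 library 1, beside 555 with all libraries.

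LOC5515806 showed the largest drop with the NF-kB hairpins among the 15 genes with the largest rise. It had 21989.5 and 20247 normalised counts with NF-kB shRNA 1 and 12326 and 26698 with NF-kB shRNA 2, against 102087, 140225 and 119612 with the GFP hairpin. The groups did not overlap, and the log2 difference was -2.61 ± 0.28 (SE, adjusted p = 2.60e-04, limma). LOC116603727 had 1889 and 1428 with NF-kB shRNA 1 and 1822 and 2343 with NF-kB shRNA 2, against 5211, 5622 and 3811 with the GFP hairpin, a difference of -1.39 ± 0.16. LOC5519900 and LOC116603455 were the other 2 of the 15 that were lower, at -1.71 and -1.36. The call of LOC116603455 was lost without NF-kB shRNA 2 library 1 or without GFP shRNA library 2 (adjusted p up to 0.0697, limma), and the calls of the other 3 genes held with any 1 of the 7 libraries left out. None of the 15 was called higher.

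Other genes that rose in STING shRNA embryos were higher with the NF-kB hairpins. LOC5499133 had 598, 499.9, 527 and 532 normalised counts in treated STING shRNA libraries, against 40.3, 15.7, 46.3 and 0 in untreated ones. In the other experiment it had 2019 and 1200.4 with NF-kB shRNA 1 and 3240.2 and 1896 with NF-kB shRNA 2, against 827, 817 and 800.2 with the GFP hairpin. The 4 NF-kB libraries all lay above the 3 GFP libraries, and the log2 difference was 1.27 ± 0.20 (SE, adjusted p = 0.00324, limma). LOC5521493, which rose by 5.72 in STING shRNA embryos, was higher by 0.82 ± 0.18 with the NF-kB hairpins (adjusted p = 0.0211, limma). That call was lost when NF-kB shRNA 1 library 1, NF-kB shRNA 2 library 1 or GFP shRNA library 2 was left out, with adjusted p up to 0.108.

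With the STAT hairpins 1 gene of 20058 (0.00499%) was lower than with the GFP hairpin and 0 were higher (limma), and the 1 gene, LOC5514869, was among those that rose in STING shRNA embryos. It had 14816, 14634, 15921 and 16542 normalised counts in treated STING shRNA libraries, against 2824, 1382, 1986 and 1739.5 in untreated ones, a log2 change of 3.01 ± 0.22. With STAT shRNA 1 it had 8294 and 7349.6 and with STAT shRNA 2 5839 and 4839, against 20350.3, 24382 and 27499 with the GFP hairpin, a difference of -1.89 ± 0.18 (SE, adjusted p = 7.74e-04, limma). Both hairpins put it under every GFP library. The STAT count was 18 without STAT shRNA 1 library 2, 4 without GFP shRNA library 1 and 2 without STAT shRNA 1 library 1. Of the 1973 risen genes tested there, 244 (12.4%) had an unadjusted p under 0.05, against 5.38% of all 20058 genes tested.

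The genes that rose lay beside each other in the genome more often than other genes did. Of 1578 risen genes that could be placed in the gene order of the reference, 599 (38.0%, 95% Clopper-Pearson interval 35.6% to 40.4%) had another risen gene as a next tested neighbour, against 16.7% of 13005 genes that were not called. For the genes that fell the same share was 245 of 1151 (21.3%, 19.0% to 23.8%), against 13.7% of the uncalled genes. The intervals cover counting error only and treat genes as independent. Of 342 neighbouring pairs in which both rose, 58 had overlapping spans, beside 2089 of all 15718 neighbouring pairs. Overlapping genes and near-identical neighbouring copies can share reads, and their part in these shares was not tested.

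Runs of at least 4 neighbouring risen genes, a length set after the values were seen, numbered 15 and held 72 genes, with lengths of 8, 7, 6, 6 and 5 genes and 4 genes in each of the other 10. With single libraries left out the runs numbered 10 to 24, lowest without STING shRNA 2 untreated library 1, STING shRNA 1 2'3'-cGAMP library 2 or STING shRNA 2 2'3'-cGAMP library 2 and highest without STING shRNA 1 untreated library 1. Runs of fallen genes reached 4 genes, in 4 places. In 1 run of 4 the genes rose by 5.24 (LOC5519898), 6.79 (LOC116618411), 6.74 (LOC116603455) and 5.82 (LOC5519900) on the log2 scale, so it holds 3 of the 15 genes with the largest rise. The tested genes on either side, LOC5519816 and LOC116603454, were not called. Of these 4 genes, LOC116603455 and LOC5519900 were lower with the NF-kB hairpins and LOC116618411 was not called there (-0.40); LOC116603455 lost that call in 2 of 7 leave-outs of a single library, and the difference between these neighbours was not tested.

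A run of 5, LOC116614706, LOC5507391, LOC116614704, LOC5507387 and LOC116614705, rose by 3.87 to 4.98. Within it LOC5507391 had a mean of 25359 ± 4810.1 normalised counts in treated libraries and 861 ± 321 in untreated libraries, and LOC116614704 had 229 ± 71.7 in treated libraries and 18.0 ± 12.8 in untreated libraries (SD, n = 4 each). The run of 7, with LOC5517527 at one end and LOC5502753 at the other, rose by 2.16 to 3.19, and each of its genes was also called higher with the GFP hairpin. The run of 8 was mixed. LOC116616008 and LOC116616003, 2 of its genes, lost their call in 7 and 5 of the 8 leave-outs of a single library, and its stretch around LOC5508964 was 5 genes long in 5 of them, without STING shRNA 2 untreated library 1 for example. It included LOC5508964, at 4.87, LOC5508950, at 1.16, and LOC5508962, the gene that was lower in 2'3'-cGAMP polyps, between neighbours that were higher there.

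**Figure D5:**
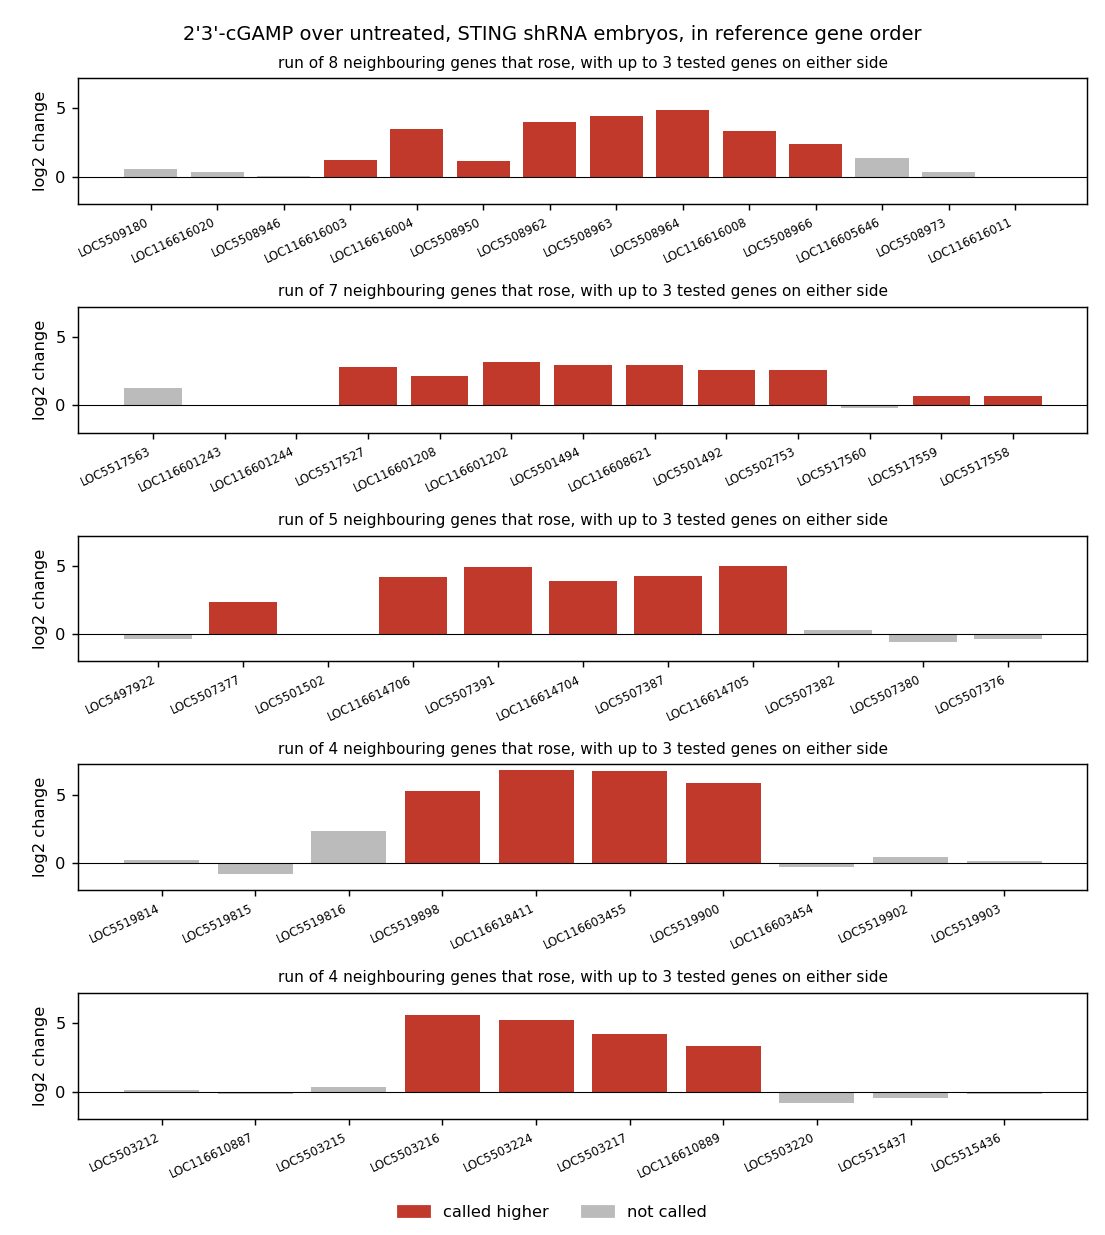
Bars give the log2 change with 2'3'-cGAMP over untreated in STING shRNA embryos for 5 of the 15 runs of neighbouring risen genes. Up to 3 tested genes on either side are included, in reference gene order. The 5 runs were picked by hand, and the runs of 6 are not among them. Genes of a run rise together by up to 6.79 and most genes beyond its ends are not called, although beside the runs of 7 and 5 smaller rises stand beyond an uncalled gene at one end.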

How the data were processed

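The members and gene lists were chosen with earlier results of these data known. The 3 tables of normalised counts per gene, a signal in the unit of normalised read counts, were used as the authors deposited them. The submitters' processing notes name FastQC 0.11.9, kallisto 0.46.1 and DESeq2 without saying which made these values, and the annotation build is not given in the sources used here. Per the labels, messenger RNA was captured on oligo-dT beads, embryo RNA was extracted in Trizol and libraries were made with a KAPA kit. Values were not whole reads, so no count model was run, and the depth behind each value is unknown.

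Genes that reached 10 in 2 or more libraries of a fit were tested on log2(value + 1) with limma 3.58.1 (R 4.3.3) with a mean-variance trend, and p-values were adjusted over all genes tested. A fold change is a difference of means on that scale. The added 1 shrinks the change of a low gene, and a 0 in a single library can enlarge it beside the ratio of group means. LOC116608134, given as 145-fold with a 0 in an untreated library, had means of 1455 in treated and 16.5 in untreated libraries. The main model held the 8 STING shRNA libraries with hairpin and treatment as terms. The differences between hairpins and between STING and GFP hairpins were interaction contrasts. The other responses were fitted within their own tables. The limma fits of the comparisons were tested on simulated data, and the neighbour, run and outlier steps were not. TMM factors, an alternative, were computed from the deposited values.

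The labels do not say whether libraries 1 and 2 of a group came from separate injections, so p-values measure the spread between these libraries, which may be technical. Named genes were those called, with a mean of at least 50 over the 8 libraries, no overlap between groups and an identifier in the reference table: the 15 with the largest rise, the 10 with the largest fall and the 5 with the highest treated level that rose by at least 1. Others were picked by the same criteria from the comparison they are named in, and the runs after their values were seen. Identifiers were matched for 74.5% of 22407 genes to RefSeq's jaNemVect1.1 table, used for gene order and not for coordinates.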

Additional observations from a re-analysis of the deposited data

Results flagged for a closer look

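In 3 of 58 groups of 4 libraries tested over the named genes, 1 library lay far from the other 3 on the log2 scale, and chance alone flags about 1 group in 20. LOC116616218 had 348.56 normalised counts in STING shRNA 1 untreated library 1, where the other untreated libraries had 886 to 1004. LOC116603727 had 2946.22 in STING shRNA 1 2'3'-cGAMP library 1, where the other treated libraries had 5088 to 5491. LOC5500942 had 2058.73 in STING shRNA 1 untreated library 2, where the other untreated libraries had 3656 to 3959. Treated and untreated libraries did not overlap in these genes, which was a condition of their selection.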

How the results depend on the processing

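The count of the STING shRNA response, 3225 genes, stayed within 1.5 times under other pseudocounts, filters and scalings. It also did so with no hairpin block and with the spread taken over 12 libraries. It was 6103 with array quality weights, 1757 at an adjusted p under 0.01, 1850 for STING shRNA 1 and 1139 for STING shRNA 2 taken alone, and 2074 to 4397 with single libraries left out. The genes behind a similar count were partly others. Of the 3225 genes, 2649 were also called with library totals set equal, 2938 with quantile normalisation and 3138 with TMM factors. Of the 29 genes named by the rule, 22 kept their call in every alternative and 0 reversed. Whether library numbers pair the samples was not settled. Correlations of the 6 same-number pairs ran from -0.01 to 0.27 (not all over 0.1), and with 2 libraries a group they cannot exclude pairing. With the replicate block the response had 3261 calls, or 2743 with 4 pairs. Adding a replicate block left the hairpin differences at 0 and gave 10736 polyp, 575 NF-kB and 1 STAT calls. Leaving out single libraries gave 0 to 1776 calls for the hairpin difference in response, 0 to 660 for STING minus GFP shRNA, 735 to 2781 for the GFP shRNA response (1211), 188 to 761 for the NF-kB effect (555) and 1 to 18 for the STAT effect (1). The GFP shRNA response was 614 with array weights, 616 at an adjusted p under 0.01 and 565 without its 2 libraries with most genes at 0, an alternative chosen after seeing the data. The NF-kB effect was 1927 with weights, 212 at 0.01 and 302 with a log2 change of at least 1, and the STAT effect 54 with weights. The causes were not tested. Within 2 genes the share of risen genes with a risen neighbour was 50.7% and of fallen genes 33.7%, and with a log2 change of at least 1 (chosen after seeing the data) 33.7% and 12.6%. Runs of at least 4 risen genes numbered 10 to 24 with single libraries left out, also chosen after seeing the data. Promoter motif and protein family alternatives were not run, since no sequences were used here. Of the 10 largest falls, 5 lost their call at an adjusted p under 0.01.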
